A study of Homo sapiens with 6 samples.

Results

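The 42 genes described here encode proteins of the kinetochore, the spindle checkpoint and the switch into and out of mitosis. They were taken by name, as the rows of the deposited table whose Ensembl identifier maps to a listed symbol, and all 42 were found among the 17811 genes listed. By role, 14 belong to the inner kinetochore, 11 to the outer kinetochore, 5 to the spindle checkpoint, 4 to the chromosomal passenger complex and 8 to mitotic entry and exit. Poly(A)-selected RNA was sequenced from cells of the line 22RV1, which derives from a human prostate cancer. They stably expressed a short hairpin named for IMPA1 (shIMPA1), a short hairpin named for IMPDH2 (shIMPDH2) or the control hairpin shLuc, and each group had 2 libraries. The product of IMPA1 is inositol monophosphatase 1, which frees inositol from inositol phosphates. That of IMPDH2 limits the rate at which cells make guanine nucleotides. The medium of all 3 lines was RPMI-1640 with serum (FBS), and no further treatment is listed. The labels name 1 stable line per hairpin and give no other hairpin against the same gene.

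The kinetochore is built on the centromere of each chromosome. Its inner layer, the constitutive centromere-associated network, sits on nucleosomes that contain CENP-A. Its outer layer, made of the KNL1, MIS12 and NDC80 complexes, binds spindle microtubules. A kinetochore without microtubules recruits the checkpoint proteins, which hold CDC20 and the anaphase-promoting complex in check until every chromosome is attached, while CDK1 with cyclin B drives the cell into mitosis. In cycling cells most of these genes are transcribed mainly in G2 and M phase, and many are controlled through promoters with CCAAT boxes and a cell cycle genes homology region (CHR).

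Values below are normalized read counts, that is, reads per gene divided by 1 size factor per library. Libraries held between 20828900 and 27773294 reads, and no member had fewer than 120 reads in any library. IMPA1 stood at 957 and 1101 in shIMPA1, against 1621 and 1331 in shLuc, and fell by 0.52 on the log2 scale (limma adjusted p = 0.0145), a call lost without shLuc replicate 1 (-0.37, limma adjusted p = 0.159). IMPDH2 stood at 2932 and 3166 in shIMPDH2, against 4269.9 and 5032 in shLuc, and its log2 fold change was -0.61 ± 0.13 (SE), limma adjusted p = 0.00999, a call lost without shLuc replicate 2 or either shIMPDH2 library (limma adjusted p = 0.0787 to 0.127). The labelled cell type was checked with 9 prostate luminal markers, all of them listed and none at 0 in any library. Their summed level was 94539 to 100087 in shIMPA1, 92577 to 97276 in shIMPDH2 and 121892 to 123379 in shLuc. Of 9 markers of stromal and blood cells, 5 were listed, with summed levels of 313 to 440 in shIMPA1, 277 to 281 in shIMPDH2 and 585 to 623 in shLuc. Much of the luminal sum is KRT8, and single luminal markers moved both ways: 3 fell and 1 rose in shIMPA1, and 2 fell and 2 rose in shIMPDH2, each against shLuc. The part of these markers in the results below was not tested.

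Most of the genes fell in shIMPA1 cells. Of the 42 genes, 34 fell and 0 rose against shLuc (limma on log2(value + 1), Benjamini-Hochberg adjusted p under 0.05 over 17742 genes), where 30.2% of all genes tested were called, with 16.2% of all genes lower. The median log2 fold change was -1.03, a 2.04-fold lower level, against 0.016 over all genes tested. Both shIMPA1 libraries lay below both shLuc libraries for 39 of the 42 genes, as for 32.7% of all genes tested. The fold changes spanned -1.73 for CENPI to 0.10 for CENPN, and 41 of 42 lay below 0, as did 48.7% of all genes tested; CENPN was the exception. At an unadjusted p under 0.05 limma had 37 of the 42 genes lower and 0 higher, a cut that at least 16.2% of all genes pass in that direction. On recovered reads edgeR called 31 members lower and 0 higher, beside 2914 of the 17742 genes lower. DESeq2 called 20 members lower and 0 higher, beside 2525 of all genes lower. In bulk RNA, fewer cells in G2 and M phase and less RNA of these genes per cell cannot be told apart.

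**Figure D1:**
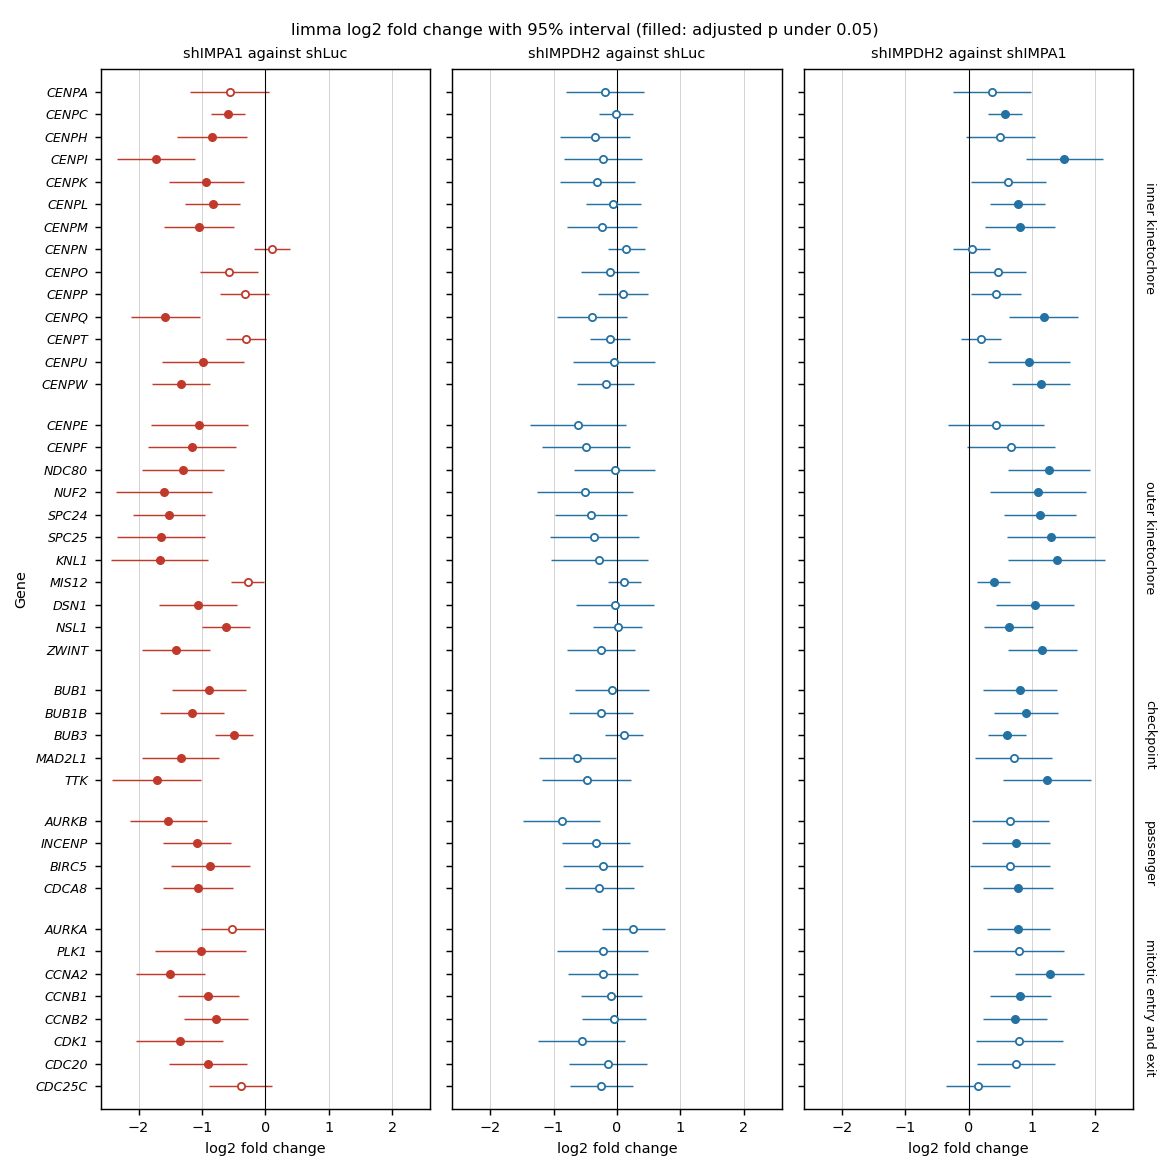
log2 fold changes (x axis) of the 42 genes (rows, by role) in shIMPA1 against shLuc, shIMPDH2 against shLuc and shIMPDH2 against shIMPA1, with 95% intervals from limma; filled points have an adjusted p under 0.05. In the left panel 34 of 42 points are filled and all of them lie below 0, in the middle panel 0 are filled, and in the right panel 26 are filled and lie above 0.

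The calls depended on single libraries. In shIMPA1 against shLuc the median log2 fold change was -1.58 without shIMPA1 replicate 1 and -0.48 without shIMPA1 replicate 2, with 40 members called lower in the one fit and 31 in the other, where 23.9% and 16.1% of all genes were called lower. Without shLuc replicate 1 the count was 10, without shLuc replicate 2 it was 15, and without either shIMPDH2 library it was 25. In those fits 6.74%, 6.43% and 12.8% of all genes were called lower. The 10 genes that kept their call whichever library was left out were CENPI, CENPQ, CENPW, SPC24, SPC25, ZWINT, BUB1B, TTK, AURKB and CCNA2. They come from all 5 roles.

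Promoter sequence was set beside the values. RefSeq promoter windows on GRCh38.p14, 250 bases before to 50 after the annotated start, matched 34 of the 42 genes; AURKA, KNL1, BIRC5, CENPL, CENPH, TTK, BUB3 and CENPM were not in that table. The windows printed below are of 3 kinds. CCNB2, CDC20 and PLK1 have the letters of a CHR upstream of the start, and CENPF and CENPW have them downstream of it. CCNA2, which fell strongly, has neither of the spellings searched. Only TTTGAA and TTCGAA were searched, so a CHR spelled otherwise was not counted in any window. Capitals mark TTTGAA or TTCGAA (the CHR letters) and CCAAT, on either strand, so that a match on the other strand reads TTCAAA or ATTGG. The windows are chr15:59104896-59105195, chr1:43358731-43359030, chr16:23678639-23678938, chr1:214602945-214603244 and chr6:126339865-126340164 on the plus strand and chr4:121823834-121824133 on the minus strand, each 5′ to 3′ along its gene.
CCNB2: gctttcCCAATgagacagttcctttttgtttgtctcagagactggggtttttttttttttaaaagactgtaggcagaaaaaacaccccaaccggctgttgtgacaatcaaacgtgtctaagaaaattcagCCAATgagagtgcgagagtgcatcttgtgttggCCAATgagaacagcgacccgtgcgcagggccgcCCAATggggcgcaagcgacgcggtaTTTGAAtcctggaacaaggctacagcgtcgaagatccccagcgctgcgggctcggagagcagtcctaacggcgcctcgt
CDC20: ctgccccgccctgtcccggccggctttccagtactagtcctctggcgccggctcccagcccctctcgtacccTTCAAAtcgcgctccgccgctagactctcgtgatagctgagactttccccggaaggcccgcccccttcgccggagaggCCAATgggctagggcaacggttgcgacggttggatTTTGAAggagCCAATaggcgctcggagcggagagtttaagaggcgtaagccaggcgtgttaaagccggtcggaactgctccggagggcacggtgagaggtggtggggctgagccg
PLK1: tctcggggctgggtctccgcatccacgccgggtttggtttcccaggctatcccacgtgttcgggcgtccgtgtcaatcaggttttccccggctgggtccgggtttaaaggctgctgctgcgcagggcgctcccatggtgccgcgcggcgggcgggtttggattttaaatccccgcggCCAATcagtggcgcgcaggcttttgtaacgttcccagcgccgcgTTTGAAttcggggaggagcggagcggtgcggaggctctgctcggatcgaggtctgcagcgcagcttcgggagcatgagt
CENPF: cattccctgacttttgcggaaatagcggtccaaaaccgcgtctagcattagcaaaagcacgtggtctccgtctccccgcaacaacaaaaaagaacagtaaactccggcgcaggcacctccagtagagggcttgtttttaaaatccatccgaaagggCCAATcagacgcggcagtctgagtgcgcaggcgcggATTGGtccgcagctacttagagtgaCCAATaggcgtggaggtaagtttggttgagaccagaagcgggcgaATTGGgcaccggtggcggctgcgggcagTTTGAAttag
CENPW: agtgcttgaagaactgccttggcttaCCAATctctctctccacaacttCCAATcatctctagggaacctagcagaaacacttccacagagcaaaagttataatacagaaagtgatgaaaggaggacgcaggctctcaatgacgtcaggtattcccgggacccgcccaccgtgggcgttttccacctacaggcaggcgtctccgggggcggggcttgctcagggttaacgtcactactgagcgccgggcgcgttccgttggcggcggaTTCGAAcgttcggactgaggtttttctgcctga
CCNA2: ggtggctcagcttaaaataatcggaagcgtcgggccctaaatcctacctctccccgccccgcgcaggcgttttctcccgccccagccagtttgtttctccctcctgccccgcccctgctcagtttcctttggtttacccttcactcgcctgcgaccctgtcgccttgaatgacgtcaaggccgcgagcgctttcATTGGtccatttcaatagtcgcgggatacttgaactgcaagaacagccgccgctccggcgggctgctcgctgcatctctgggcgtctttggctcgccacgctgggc

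Positions in these windows are counted from the annotated start at 0 and give the leftmost base of a match. CCNB2 has 4 CCAAT matches, at -244, -120, -87 and -54, and TTTGAA follows at -29. The match at -120 lies 124 bases after the first, and the next 2 each lie 33 bases after the one before. PLK1 has CCAAT at -73 and TTTGAA also at -29. CDC20 has CCAAT at -100 and -55 with TTTGAA between them at -65, and a further TTTGAA match at -178 on the other strand. In CENPF the TTTGAA lies at 40, after the start, behind 4 CCAAT matches, and in CENPW the TTCGAA lies at 17. The CCNA2 window has a single CCAAT match, at -56 on the other strand.

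TTTGAA or TTCGAA occurred in 19 of the 34 windows (55.9%), against 16.6% of the 27305 promoter windows of the same length in the table and 11.1% of windows of genes in the deposited table. Within 50 bases of the start on either side it occurred in 16 of 34 (47.1%), against 5.05% of all windows and 3.12% of windows of genes in the deposited table. CCAAT occurred in 23 of 34 (67.6%), against 35.7% of all windows. The core letters of E2F sites, TTCCCGC or TTGGCGC, occurred in 7 of 34 (20.6%), against 9.33% of all windows and 14.3% of windows of genes in the deposited table. Both strands were searched, and in CDCA8 the TTTGAA match and a CCAAT match share 1 base. Only the first listed window of each gene was searched, so letters at other annotated starts were not counted. CDC25C had 4 listed windows, CENPP had 3, and AURKB, MIS12, ZWINT and CDK1 had 2 each. A match is a description of letters and not of a bound factor.

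**Figure D2:**
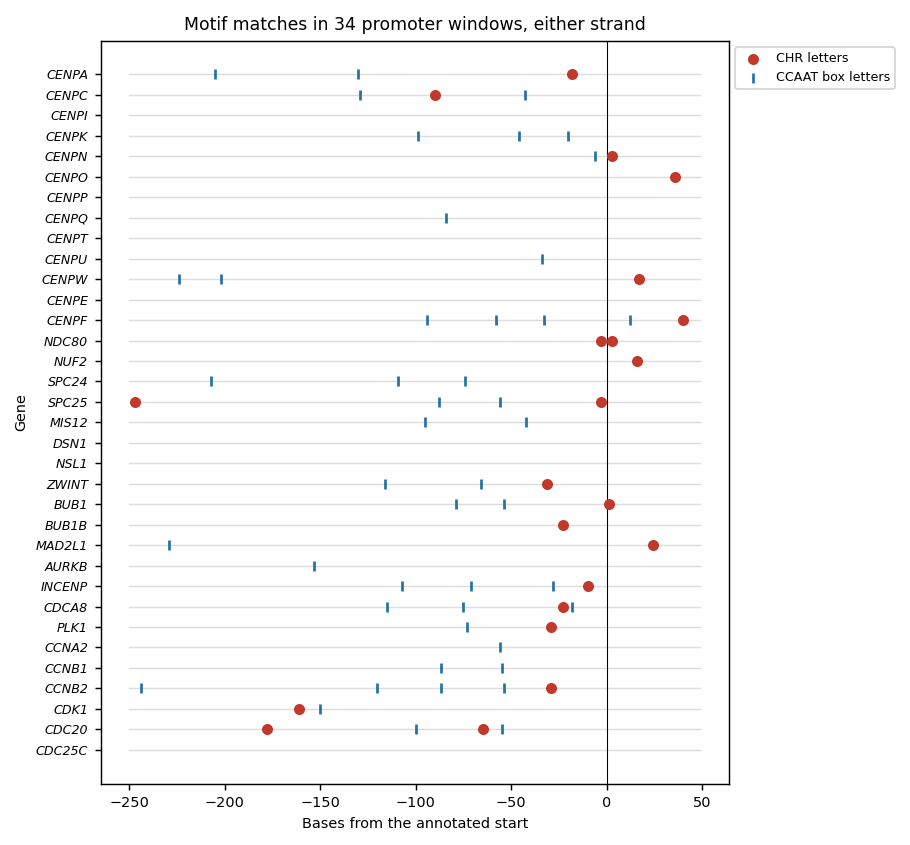
Matches in the 34 promoter windows (rows, genes by role) by position from the annotated start (x axis, bases); circles are the CHR letters and bars the CCAAT box letters, on either strand. The CHR letters crowd around the start, within 50 bases of it in 16 of 34 windows, and CCAAT matches lie mostly upstream of it.

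Members with and without the CHR letters near the start both fell. In shIMPA1 against shLuc, 13 of the 16 members with the letters within 50 bases of the start fell, with a median log2 fold change of -1.12. Of the 18 members with a window and no such match, 14 fell, with a median of -0.96. These include CENPI, whose only listed window starts inside the gene as annotated in GENCODE. That window may belong to an internal start, so its lack of matches may not describe the main promoter. Over other genes with a window, 122 of 365 with the letters near the start fell (33.4%). Over all genes with a window and no such match, 2038 of 11916 fell (17.1%).

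**Figure D3:**
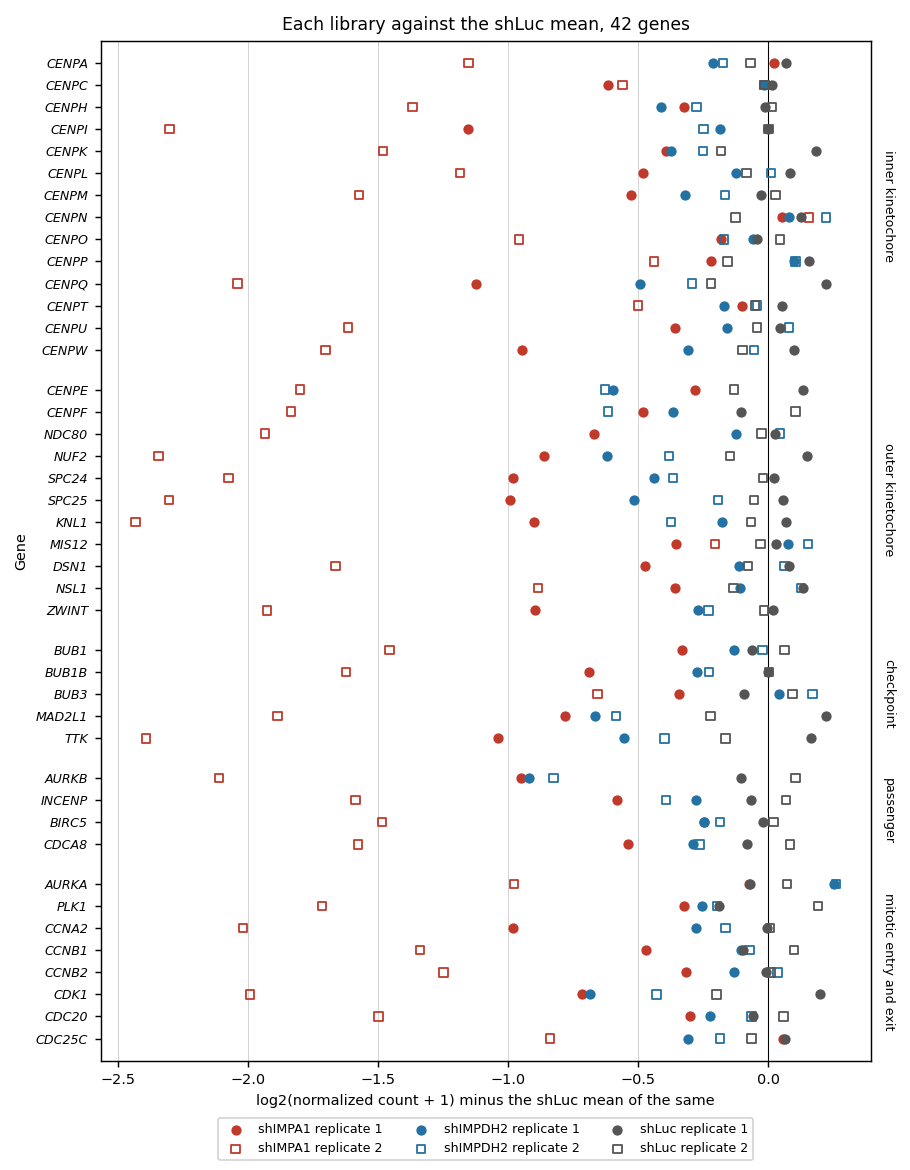
Each of the 6 libraries for the 42 genes (rows, by role), as log2(normalized count + 1) minus the shLuc mean of the same (x axis). Open red squares, shIMPA1 replicate 2, lie furthest left for most genes, and filled red circles, shIMPA1 replicate 1, lie between them and the shLuc points at 0.

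The inner kinetochore had the smallest median change of the 5 roles in shIMPA1 cells in the fit of all libraries. Of its 14 genes 9 fell, with a median log2 fold change of -0.84. Mitotic entry and exit had a smaller median without shLuc replicate 2 (-0.82 against -0.88) and without shIMPA1 replicate 2 (-0.32 against -0.38). CENPI (ENSG00000102384, GRCh38 chromosome X, 101098218 to 101163681, plus strand), a subunit of the CENP-H/I/K/M complex, stood at 231 and 104 normalized counts in the shIMPA1 libraries, 453 and 433 in the shIMPDH2 libraries and 515 and 515 in the shLuc libraries. Its shIMPA1 libraries lay far below the other 4, and its log2 fold change was -1.73 ± 0.28 (SE), limma adjusted p = 0.00118, the largest fall of all members. CENPQ, a subunit of the CENP-O/P/Q/U complex, stood at 845 and 446 in shIMPA1, 1305 and 1500.3 in shIMPDH2 and 2144 and 1579 in shLuc. CENPW, a histone-fold protein that pairs with CENP-T on centromeric DNA, stood at 819 and 485 in shIMPA1, 1278 and 1523 in shIMPDH2 and 1695 and 1475 in shLuc. Neither gene had overlapping shIMPA1 and shLuc libraries, and their log2 fold changes against shLuc were -1.58 ± 0.25 (SE), limma adjusted p = 0.000995 for CENPQ and -1.33 ± 0.21 (SE, limma adjusted p = 0.000995) for CENPW.

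The partners of CENPI in its complex had smaller fold changes. CENPH stood at 2040.1 and 989 in shIMPA1, 1919 and 2109 in shIMPDH2 and 2532 and 2578 in shLuc. CENPK stood at 1739 and 817 in shIMPA1, 1759 and 1918 in shIMPDH2 and 2592 and 2011 in shLuc. CENPM, the small GTPase-like subunit, stood at 1054 and 509.9 in shIMPA1, 1218 and 1354 in shIMPDH2 and 1491 and 1549 in shLuc. In all 3 genes shIMPA1 replicate 2 was the lowest library, and shIMPA1 replicate 1 lay closer to the shIMPDH2 libraries than to it. The log2 fold changes in shIMPA1 against shLuc were -0.85 ± 0.25 (SE), limma adjusted p = 0.0256 for CENPH, -0.94 (limma adjusted p = 0.0230) for CENPK and -1.05 (limma adjusted p = 0.00986) for CENPM. CENPL, which binds CENP-N, stood at 569 and 349 in shIMPA1, 728 and 799.7 in shIMPDH2 and 842 and 749 in shLuc. CENPU, which docks PLK1 at kinetochores, stood at 3184 and 1329.6 in shIMPA1, 3653 and 4313 in shIMPDH2 and 4206 and 3961 in shLuc. Both fell, with log2 fold changes of -0.83 for CENPL and -0.99 for CENPU (limma adjusted p = 0.00933 and 0.0270). None of these 5 genes kept a call when shLuc replicate 1 or shLuc replicate 2 was left out.

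CENPC fell evenly in both shIMPA1 libraries. CENPC, the scaffold that links CENP-A nucleosomes to the outer kinetochore, stood at 469 and 488 in shIMPA1, 713 and 713 in shIMPDH2 and 728 and 713 in shLuc. The 2 shIMPA1 libraries were almost equal and both lay below all 4 others, whereas the shIMPDH2 libraries were at the level of the lower shLuc library. The log2 difference of shIMPA1 against shLuc was -0.59 ± 0.12 (SE), limma adjusted p = 0.00453, and with shLuc replicate 1 left out the gene no longer passed (limma adjusted p = 0.0543).

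In the inner kinetochore 5 genes did not pass the test in shIMPA1 cells. CENPA, the histone H3 variant that marks the centromere, stood at 625 and 276 in shIMPA1, 530.2 and 545 in shIMPDH2 and 645 and 587 in shLuc. Its shIMPA1 replicate 1 lay within the shLuc range and its shIMPA1 replicate 2 was the lowest of the 6 libraries, and its log2 fold change was -0.57 ± 0.28 (SE), limma adjusted p = 0.152. CENPN, which reads CENP-A nucleosomes, stood at 4986 and 5363 in shIMPA1, 5079 and 5613 in shIMPDH2 and 5253 and 4412 in shLuc. All 3 groups overlapped for CENPN, and its log2 fold change was 0.10 ± 0.13 (SE), limma adjusted p = 0.587. CENPO stood at 609 and 355 in shIMPA1, 664 and 615 in shIMPDH2 and 671 and 714 in shLuc. CENPP stood at 151 and 129 in shIMPA1, 188 and 189 in shIMPDH2 and 196 and 158 in shLuc. CENPT, which bridges the centromere to the NDC80 complex, stood at 1724 and 1305 in shIMPA1, 1643 and 1794 in shIMPDH2 and 1915 and 1784 in shLuc. The shIMPA1 libraries lay below both shLuc libraries for CENPO, CENPP and CENPT, with log2 fold changes of -0.57, -0.33 and -0.30 (limma adjusted p = 0.0578, 0.190 and 0.138).

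The outer kinetochore had the largest median change of the 5 roles in the fit of all libraries. Of its 11 genes 10 fell in shIMPA1 cells, with a median log2 fold change of -1.30. Without shIMPA1 replicate 2 its median was -0.67, behind the spindle checkpoint at -0.69. The 4 subunits of the NDC80 complex, the rod that grips the microtubule, all fell. SPC24 (ENSG00000161888, GRCh38 chromosome 19, 11131520 to 11155808, minus strand) stood at 1204 and 563 normalized counts in the shIMPA1 libraries, 1751 and 1843 in the shIMPDH2 libraries and 2409 and 2343 in the shLuc libraries. SPC25 (ENSG00000152253, GRCh38 chromosome 2, 168834132 to 168913371, minus strand) stood at 303 and 122 in shIMPA1, 423 and 529 in shIMPDH2 and 629 and 582 in shLuc. For both, shIMPA1 replicate 2 was the lowest library, shIMPA1 replicate 1 the next lowest, and the shIMPDH2 libraries lay between them and shLuc. Their log2 fold changes were -1.53 ± 0.26 (SE), limma adjusted p = 0.00154 for SPC24 and -1.65 ± 0.32 (SE, limma adjusted p = 0.00305) for SPC25. NDC80 stood at 1263 and 525 in shIMPA1, 1845 and 2073 in shIMPDH2 and 2045 and 1973 in shLuc. NUF2 stood at 2852 and 1019 in shIMPA1, 3366 and 3976 in shIMPDH2 and 5744 and 4675 in shLuc. The shIMPDH2 libraries of NDC80 lay on either side of the shLuc range, whereas those of NUF2 lay below it. The shIMPA1 fold changes against shLuc were -1.30 for NDC80 (limma adjusted p = 0.00723) and -1.60 for NUF2 (limma adjusted p = 0.00561).

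ZWINT and KNL1, which bind each other at the outer kinetochore, fell as well. ZWINT (ENSG00000122952, GRCh38 chromosome 10, 56357228 to 56361275, minus strand) stood at 3745 and 1834 in shIMPA1, 5789.9 and 5949 in shIMPDH2 and 7065 and 6899 in shLuc. KNL1, the scaffold for BUB1 and BUB3, stood at 1432 and 494 in shIMPA1, 2362 and 2064 in shIMPDH2 and 2802 and 2554 in shLuc. Both shIMPA1 libraries lay below the other 4 for both genes. The log2 fold changes in shIMPA1 against shLuc were -1.41 ± 0.25 (SE), limma adjusted p = 0.00178 for ZWINT and -1.67 ± 0.35 (SE, limma adjusted p = 0.00479) for KNL1. Without shLuc replicate 1 KNL1 lost its call (limma adjusted p = 0.0619).

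In the MIS12 complex, which joins the inner and outer layers, DSN1 and NSL1 passed the test in shIMPA1 cells and MIS12 did not. For each of them both shIMPA1 libraries lay below both shLuc libraries. DSN1 stood at 1432 and 627 in shIMPA1, 1840.2 and 2077 in shIMPDH2 and 2102 and 1886 in shLuc. NSL1 stood at 2327 and 1616 in shIMPA1, 2770.2 and 3260.5 in shIMPDH2 and 3283 and 2722 in shLuc. MIS12 itself stood at 881 and 978 in shIMPA1, 1189 and 1254 in shIMPDH2 and 1153 and 1104 in shLuc. For DSN1 and NSL1 shIMPA1 replicate 2 was the lowest library, whereas for MIS12 it was shIMPA1 replicate 1. The log2 fold changes in shIMPA1 against shLuc were -1.07 for DSN1 (limma adjusted p = 0.0152), -0.62 for NSL1 (limma adjusted p = 0.0203) and -0.28 for MIS12, which did not pass the test (limma adjusted p = 0.0999). The remaining outer kinetochore genes are large proteins that come and go with mitosis. CENPE, the kinesin that carries chromosomes to the spindle equator, stood at 2514 and 877 in shIMPA1, 2020.5 and 1978 in shIMPDH2 and 3353 and 2789.7 in shLuc. CENPF, which links kinetochores to dynein regulators, stood at 2779 and 1087 in shIMPA1, 3013 and 2529 in shIMPDH2 and 3613 and 4171 in shLuc. In both genes the shIMPDH2 libraries lay below the shLuc range, and shIMPA1 replicate 2 was the lowest library. For CENPE the shIMPDH2 libraries also lay below shIMPA1 replicate 1. The log2 fold changes in shIMPA1 against shLuc were -1.04 for CENPE (limma adjusted p = 0.0415) and -1.16 for CENPF (limma adjusted p = 0.0181). Among the fits that left out a library, CENPE kept its call only without shIMPA1 replicate 1. Without shIMPA1 replicate 2 its log2 fold change was -0.28.

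All 5 spindle checkpoint genes fell in shIMPA1 cells, with a median log2 fold change of -1.16. TTK (ENSG00000112742, GRCh38 chromosome 6, 80003887 to 80042527, plus strand), the kinase MPS1 that starts checkpoint signalling at unattached kinetochores, stood at 1076 and 420.2 normalized counts in the shIMPA1 libraries, 1506 and 1676 in the shIMPDH2 libraries and 2478 and 1973 in the shLuc libraries. BUB1B (ENSG00000156970, GRCh38 chromosome 15, 40161023 to 40221136, plus strand), which encodes BUBR1 of the mitotic checkpoint complex, stood at 1998 and 1045 in shIMPA1, 2665 and 2752 in shIMPDH2 and 3219.5 and 3229 in shLuc. MAD2L1, which encodes MAD2, the inhibitor of CDC20, stood at 4816 and 2239 in shIMPA1, 5225 and 5522 in shIMPDH2 and 9670.3 and 7100.3 in shLuc. In all 3 genes both shIMPA1 libraries lay below the other 4, and both shIMPDH2 libraries lay below both shLuc libraries. The shIMPA1 log2 fold changes were -1.72 ± 0.32 (SE), limma adjusted p = 0.00257 for TTK, -1.16 (limma adjusted p = 0.00348) for BUB1B and -1.34 (limma adjusted p = 0.00475) for MAD2L1. BUB1, the kinase that marks the centromere for shugoshin, stood at 1505 and 689 in shIMPA1, 1727 and 1862 in shIMPDH2 and 1815 and 1975 in shLuc. BUB3, which brings BUB1 and BUBR1 to KNL1, stood at 2825 and 2273 in shIMPA1, 3693 and 4033 in shIMPDH2 and 3363 and 3826 in shLuc. BUB3 had the smallest change of the role, -0.50 (limma adjusted p = 0.0187), against -0.89 for BUB1 (limma adjusted p = 0.0269). With any shLuc or shIMPDH2 library left out, BUB1 no longer passed the test.

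The chromosomal passenger complex, which corrects faulty attachments, fell in shIMPA1 cells, with 4 of 4 genes called and a median log2 fold change of -1.07. AURKB (ENSG00000178999, GRCh38 chromosome 17, 8204733 to 8210600, minus strand), its kinase, stood at 1109 and 495 normalized counts in the shIMPA1 libraries, 1132 and 1210.2 in the shIMPDH2 libraries and 1996 and 2308 in the shLuc libraries. This was the member whose shIMPDH2 libraries lay furthest below shLuc, and they stood close to shIMPA1 replicate 1. The log2 fold change of AURKB was -1.53 ± 0.28 (SE), limma adjusted p = 0.00213 in shIMPA1 against shLuc. INCENP, the scaffold, stood at 1050.1 and 522 in shIMPA1, 1296 and 1196 in shIMPDH2 and 1500.4 and 1646 in shLuc. BIRC5, which encodes survivin, stood at 3761 and 1593 in shIMPA1, 3760.2 and 3923 in shIMPDH2 and 4402 and 4529 in shLuc. CDCA8, which encodes borealin, stood at 1076 and 523 in shIMPA1, 1280.0 and 1301 in shIMPDH2 and 1477 and 1656 in shLuc. For BIRC5, shIMPA1 replicate 1 stood at the level of shIMPDH2 replicate 1, and shIMPA1 replicate 2 lay far below both. The 3 non-kinase subunits had log2 fold changes of -1.08, -0.87 and -1.06 (limma adjusted p = 0.00731, 0.0406 and 0.00927). BIRC5 kept its call only without shIMPA1 replicate 1 among the fits that left out a library.

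Of the 8 genes of mitotic entry and exit 6 fell in shIMPA1 cells, with a median log2 fold change of -0.90. CCNA2 (ENSG00000145386, GRCh38 chromosome 4, 121816444 to 121823933, minus strand), cyclin A2, stood at 2049 and 996 normalized counts in the shIMPA1 libraries, 3339.7 and 3610.3 in the shIMPDH2 libraries and 4027 and 4065 in the shLuc libraries. CDK1 (ENSG00000170312, GRCh38 chromosome 10, 60778331 to 60794852, plus strand), the mitotic kinase, stood at 6495 and 2676 in shIMPA1, 6625 and 7920.1 in shIMPDH2 and 12246 and 9291 in shLuc. The shIMPA1 libraries of CCNA2 lay well below the other 4, whereas shIMPA1 replicate 1 and shIMPDH2 replicate 1 were close for CDK1. The log2 fold changes against shLuc were -1.50 ± 0.25 (SE), limma adjusted p = 0.00134 for CCNA2 and -1.36 ± 0.31 (SE, limma adjusted p = 0.00809) for CDK1. The B-type cyclins, the partners of CDK1, had smaller fold changes than CCNA2. CCNB1 stood at 2451 and 1343 in shIMPA1, 3163 and 3234 in shIMPDH2 and 3175 and 3641 in shLuc. CCNB2 stood at 1702 and 890.4 in shIMPA1, 1934 and 2172 in shIMPDH2 and 2104 and 2133 in shLuc. In both cyclin B genes the shIMPDH2 libraries lay in or near the shLuc range and both shIMPA1 libraries lay below it. Their shIMPA1 log2 fold changes were -0.91 (limma adjusted p = 0.0103) for CCNB1 and -0.78 (limma adjusted p = 0.0251) for CCNB2.

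PLK1 and CDC20, whose promoters carry the CHR letters shown above, both fell and were lowest in 1 library. PLK1, the kinase of centrosome maturation and kinetochore attachment, stood at 1284 and 488 in shIMPA1, 1347 and 1401 in shIMPDH2 and 1409 and 1835 in shLuc. CDC20, the activator of the anaphase-promoting complex, stood at 3261 and 1422 in shIMPA1, 3438 and 3843 in shIMPDH2 and 3864 and 4185 in shLuc. For both, shIMPA1 replicate 2 was the lowest library and shIMPA1 replicate 1 lay closer to the shIMPDH2 libraries than to it. The log2 fold changes were -1.02 (limma adjusted p = 0.0363) for PLK1 and -0.90 (limma adjusted p = 0.0323) for CDC20. Without shIMPA1 replicate 2 they were -0.32 for PLK1 and -0.30 for CDC20. PLK1 lost its call with any shLuc or shIMPDH2 library left out. Among the fits that left out a library, CDC20 kept its call only without shIMPA1 replicate 1. AURKA, the centrosomal kinase that activates PLK1, stood at 1013 and 541 in shIMPA1, 1272 and 1277 in shIMPDH2 and 1014 and 1121 in shLuc. CDC25C, the phosphatase that activates CDK1, stood at 749 and 402 in shIMPA1, 582 and 633 in shIMPDH2 and 754 and 689 in shLuc. In both genes shIMPA1 replicate 1 lay at the shLuc level and shIMPA1 replicate 2 below it, and neither passed the test, with log2 fold changes of -0.53 and -0.39 (limma adjusted p = 0.102 and 0.220).

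Among the 8 members without a call in shIMPA1 cells, 7 share exon sequence with a neighbouring gene in GENCODE release 29, as do 8 of the 34 that fell. The shared part was 38.0% of the exon length for CENPP with IPPK, 27.0% for CENPO with ADCY3, 12.8% for CENPN with CMC2 and 10.8% for CENPT with TSNAXIP1. Over the 6 libraries CMC2 averaged 13949 normalized counts, ADCY3 1152, IPPK 238 and TSNAXIP1 81.1. For MIS12 with DERL2, CDC25C with FAM53C and CENPA with SLC35F6 the shared part was 9.53%, 8.78% and 6.96%. DERL2 averaged 1622 normalized counts, FAM53C 1627 and SLC35F6 576. All of these neighbours are on the opposite strand except SLC35F6. Whether the libraries kept strand is not given in the sources used here, so reads of such pairs cannot be told apart with certainty, and the part of the overlap in the missing calls was not tested. Of the genes that fell, CENPU shares 11.7% with PRIMPOL, PLK1 11.6% with AC008870.3, BUB1B 10.2% with the readthrough gene BUB1B-PAK6 and CCNA2 9.08% with EXOSC9.

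The 2 shIMPA1 libraries differed from each other for nearly all of the 42 genes. The median log2 ratio of replicate 2 to replicate 1 was -1.04 over the members, against -0.017 over all genes tested. The members with a ratio more than 2-fold lower in replicate 2 numbered 26 of 42, against 3.79% of all genes tested. The same median was 0.11 between the shIMPDH2 libraries and -0.046 between the shLuc libraries, and 0 members differed more than 2-fold in either group. In shIMPA1 replicate 1, 39 of 42 genes lay below both shLuc libraries, as did 41.0% of all genes tested. The median of the members there was 0.717 of the shLuc mean. In shIMPA1 replicate 2, 41 of 42 lay below both, as did 42.7% of all genes tested, and the median of the members was 0.333. Both shIMPA1 libraries lay below shLuc, and replicate 2 lay much further below. A ratio of 1 library to 1 library has no replicate check.

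By role the gap was widest in the outer kinetochore, with a median of -1.27, and narrowest in the inner kinetochore, with -0.85. The widest gaps were those of KNL1 (-1.53), CENPE (-1.52) and NUF2 (-1.48). The 3 genes with a gap above 0 were MIS12 (0.15), CENPN (0.11) and CENPC (0.057). The MCM helicase genes, which act in DNA replication, fell in shIMPA1 cells in 6 of 6 cases, beside 16.2% of all genes lower. Their median gap was -0.44, with 0 of 6 more than 2-fold apart, beside 5.26% of all genes tested. The targeted gene did not follow the gap: IMPA1 stood at 957 in shIMPA1 replicate 1 and at 1101 in shIMPA1 replicate 2. Summed over the 42 genes, the level was 77995 and 41245 in shIMPA1, 91486 and 98518 in shIMPDH2 and 118139 and 109686 in shLuc. As a share of all normalized counts this was 0.331% and 0.173% in shIMPA1, 0.380% and 0.390% in shIMPDH2 and 0.479% and 0.451% in shLuc.

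**Figure D4:**
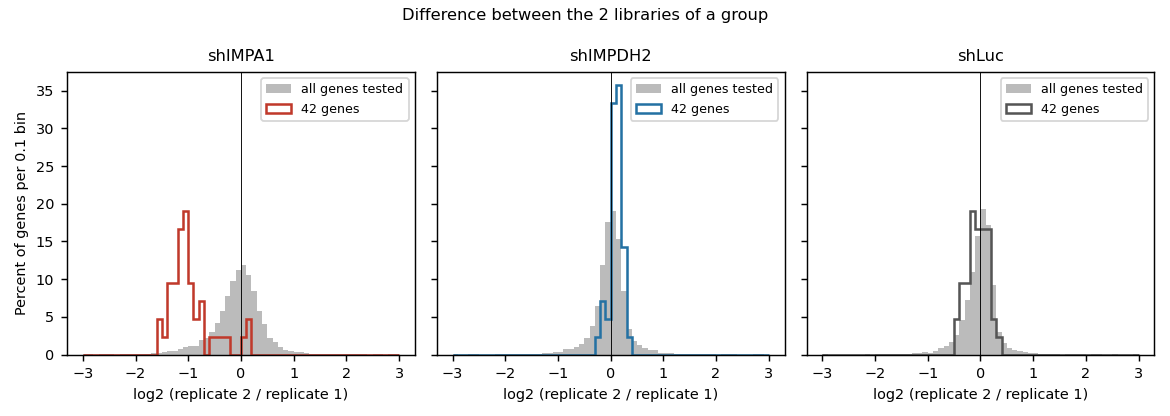
Distribution of log2 (replicate 2 / replicate 1) within shIMPA1, shIMPDH2 and shLuc (panels), as percent of genes per bin of 0.1, for the 42 genes (outline) and all 17742 genes tested (grey; values beyond 3 are drawn at 3). The outline sits around -1.04 in shIMPA1 and near 0 in shIMPDH2 and shLuc.

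In shIMPDH2 cells limma called 0 of the 42 genes against shLuc, where it called 17.0% of all genes tested, 9.15% lower and 7.86% higher. At an unadjusted p under 0.05 limma had 2 members, MAD2L1 and AURKB, both lower. At least 17.0% of all genes tested pass that looser cut, since they pass the adjusted one. On recovered reads edgeR called 1 member, AURKB, beside 3010 of the 17742 genes, and DESeq2 called 0, beside 2632. The fold changes leaned to 1 side: 36 of 42 lay below 0, as did 50.6% of all genes tested, and the median was -0.22 against -0.0061 over all genes. Both shIMPDH2 libraries lay below both shLuc libraries for 27 members, as for 33.4% of all genes tested, and above them for 2, MIS12 and AURKA, as for 32.7%. This comparison and the one of shIMPA1 share the same 2 shLuc libraries.

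AURKB came closest to a call in shIMPDH2 cells. It stood at 1132 and 1210.2 in shIMPDH2, against 1996 and 2308 in shLuc, without overlap, and its log2 fold change was -0.87 ± 0.28 (SE), limma adjusted p = 0.0510, with a 95% interval of -1.48 to -0.27. MAD2L1 stood at 5225 and 5522 in shIMPDH2, against 9670.3 and 7100.3 in shLuc, and its log2 fold change was -0.63 ± 0.28 (SE), limma adjusted p = 0.147. The next lowest were CENPE at -0.61 (95% interval -1.37 to 0.15), CDK1 at -0.56 (-1.24 to 0.13), NUF2 at -0.50 (-1.26 to 0.25) and CENPF at -0.49 (-1.18 to 0.20). For all 4 genes the shIMPDH2 libraries lay below both shLuc libraries, and the interval includes 0. At the other end AURKA stood at 1272 and 1277 in shIMPDH2, against 1014 and 1121 in shLuc, with a log2 fold change of 0.26 ± 0.23 (SE), limma adjusted p = 0.470. Several genes with a large fall in shIMPA1 cells had intervals around 0 in shIMPDH2 cells: CENPI at -0.22 (-0.83 to 0.40), NDC80 at -0.039 (-0.68 to 0.61), CCNA2 at -0.22 (-0.77 to 0.32) and CENPW at -0.18 (-0.64 to 0.28). The limma fit estimated a single spread per gene over all 3 groups. The gap between the shIMPA1 libraries therefore enters the width of these intervals and the adjusted p-values, although shIMPA1 is not compared here. For AURKB the log2 ratio of replicate 2 to replicate 1 was -1.16 in shIMPA1, 0.096 in shIMPDH2 and 0.21 in shLuc. These intervals do not show that the genes were unaffected.

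The count of 0 changed with the libraries in the fit. With only the shIMPDH2 and shLuc libraries fitted, or without either shIMPA1 library, limma called 16 members, of which 15 were lower and AURKA was higher. In the fit of only these libraries 36.5% of all genes were called, with 19.0% of all genes lower and 17.5% higher. The 16 of 42 called in either direction lay near the share over all genes. By direction they did not, as 15 of the 16 were lower. The 15 lower were CENPH, CENPK, CENPQ, CENPE, CENPF, NUF2, SPC24, SPC25, KNL1, MAD2L1, TTK, AURKB, INCENP, CDCA8 and CDK1. They include 6 of the 11 outer kinetochore genes and 3 of the 4 passenger complex genes.

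The direct comparison of the knockdowns set most of the genes higher in shIMPDH2 than in shIMPA1 cells. Of the 42 genes, 26 were higher and 0 lower in shIMPDH2 (limma), where 26.1% of all genes tested were called, with 13.5% of all genes higher. On recovered reads DESeq2 called 15 members higher and 0 lower, beside 2085 of the 17742 genes higher. The median log2 fold change of shIMPDH2 against shIMPA1 was 0.78, against -0.0040 over all genes tested. Both shIMPDH2 libraries lay above both shIMPA1 libraries for 34 genes, as for 31.5% of all genes tested, and below them for 0, as for 32.4%. No member had a fold change below 0 in this comparison, as 50.3% of all genes tested did. CENPI had the largest difference, with 453 and 433 in shIMPDH2, against 231 and 104 in shIMPA1, and a log2 fold change of 1.51 ± 0.28 (SE), limma adjusted p = 0.00308. KNL1 followed at 1.39, SPC25 at 1.29, CCNA2 at 1.28 and NDC80 at 1.26 (limma adjusted p = 0.0141, 0.0128, 0.00395 and 0.01003). Each of these 4 genes had both shIMPDH2 libraries above both shIMPA1 libraries.

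The 26 genes came from every role. They were 7 of 14 inner kinetochore genes, 9 of 11 outer kinetochore genes, 4 of 5 checkpoint genes, 2 of 4 passenger complex genes and 4 of 8 genes of mitotic entry and exit. MIS12 and AURKA were higher in shIMPDH2 without having passed the test against shLuc in either knockdown. MIS12 stood at 1189 and 1254 in shIMPDH2, against 881 and 978 in shIMPA1, a difference of 0.39 ± 0.12 (SE), limma adjusted p = 0.0327. AURKA stood at 1272 and 1277 in shIMPDH2, against 1013 and 541 in shIMPA1, a difference of 0.78 ± 0.23 (SE), limma adjusted p = 0.0263. In the passenger complex INCENP and CDCA8 were higher, whereas AURKB and BIRC5 did not pass the test, with log2 fold changes of 0.66 and 0.65 (limma adjusted p = 0.103 and 0.119). Without shIMPA1 replicate 1 the count was 41 higher, where 21.5% of all genes were called higher. Without shIMPA1 replicate 2 it was 20 higher, with CENPE lower, against 15.8% of all genes higher. It was 4 without shIMPDH2 replicate 1, where 4.97% of all genes were higher. Without shIMPDH2 replicate 2 it was 1, CENPI, where 3.39% of all genes were higher, so that this count did not pass the share over all genes. It was 17 without either shLuc library, where 9.91% and 9.88% of all genes were higher, and DESeq2 called 15.

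Levels between genes were compared per kilobase of all annotated exons joined, as shLuc means. ZWINT was highest at 2936 ± 49.5 (SD, n = 2) normalized counts per kilobase, followed by CDK1 at 2739 ± 532 (SD, n = 2), CENPW at 1994 and CDC20 at 1975. The lowest were CENPI at 119, CENPC at 83.7 and CENPP at 18.1, so that the levels spanned 163-fold. Per kilobase of the longest transcript CDK1 was highest at 5528, above ZWINT at 3561, and the span was 274-fold. The median was 596, against 83.8 over all genes tested, and 40 of the 42 genes lay above the median of all genes. ZWINT and CDK1 did not differ beyond their spread, and the shLuc ranges overlapped for 24 of the 41 pairs of neighbours in the order. The subunits of 1 complex were not at 1 level: per kilobase, shLuc levels in the NDC80 complex were 1549 for NUF2, 837 for SPC24, 558 for NDC80 and 329 for SPC25. In shIMPA1 cells CENPN, at 1450 per kilobase, was the highest of all members, followed by ZWINT at 1173 and CDK1 at 1166, whereas per kilobase of the longest transcript CDK1 at 2354 lay above CENPN at 2086.

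**Figure D5:**
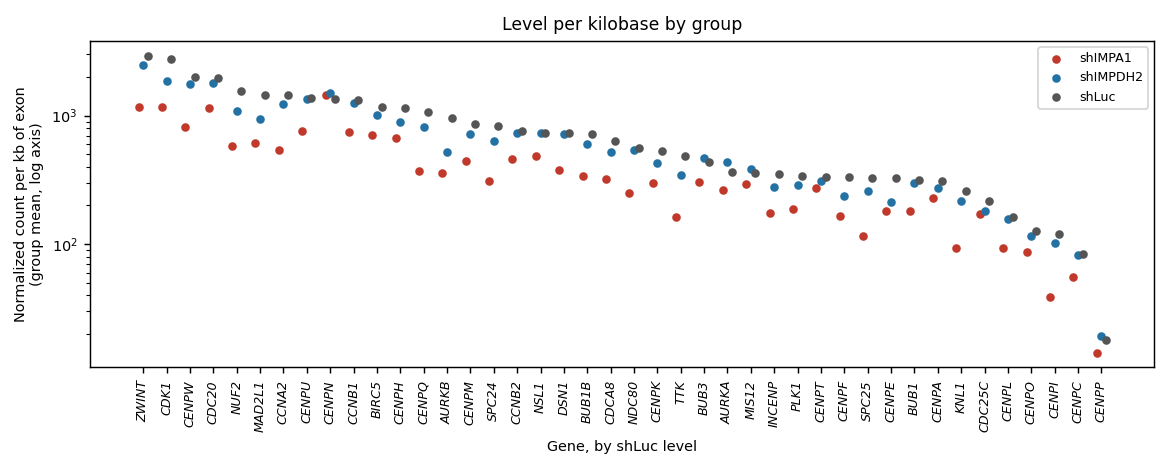
Group mean of the normalized count per kilobase of all annotated exons joined (y axis, log scale) for the 42 genes, ordered by their shLuc level (x axis), in shIMPA1, shIMPDH2 and shLuc. The shIMPA1 points lie lowest for all genes but CENPN, and the order runs from ZWINT at 2936 to CENPP at 18.1 in shLuc.

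Other genes of the same machinery were taken from lists set with earlier results of these data known. Among 17 other centromere and kinetochore proteins, 10 fell and 1 rose in shIMPA1 cells, with a median log2 fold change of -0.62, where 16.2% of all genes tested were lower. Of these 11 calls, 2 were kept whichever library was left out. MIS18A, which prepares the centromere for new CENP-A, fell, at -1.78 (limma adjusted p = 7.43e-05), as did OIP5, its partner, at -1.20 and SKA3, which helps kinetochores hold microtubules, at -1.24. CENPA itself had no call. In shIMPDH2 cells 0 of the 17 fell and 1 rose, beside 9.15% of all genes lower and 7.86% higher. The gene that rose was CENPX, a histone-fold protein, at 0.58 (limma adjusted p = 0.00770). Its call was lost when any shLuc or shIMPDH2 library was left out. Among 10 other checkpoint proteins, 6 fell and 1 rose in shIMPA1 cells, with a median of -0.77, again beside 16.2% of all genes lower, and 2 of the 7 calls were kept whichever library was left out. The falls included TRIP13, the ATPase that remodels MAD2, at -1.32, and KNTC1 and ZWILCH of the RZZ complex at -1.31 and -1.44. In shIMPDH2 cells 0 of the 10 were called, beside 17.0% of all genes tested.

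The machinery of anaphase had a smaller median change. Among 20 genes of the anaphase-promoting complex and separase, 6 fell and 0 rose in shIMPA1 cells, with a median of -0.19, beside 16.2% of all genes lower. Of the 6, PTTG1 kept its call whichever library was left out. Ranked by adjusted p and not by size, the falls were led by PTTG1, securin, at -1.58 (limma adjusted p = 0.00305). CDC26 at -0.71, ANAPC4 at -0.61 and UBE2C, the ubiquitin-conjugating enzyme, at -1.14 came next. In shIMPDH2 cells 3 of the 20 rose and 0 fell: ANAPC13 at 0.55, CDC16 at 0.44 and ANAPC7 at 0.38, beside 7.86% of all genes higher, and each lost its call in some fit that left out a library. Among 15 other genes of the CDK1 switch and mitotic kinases, 12 fell and 0 rose in shIMPA1 cells, beside 16.2% of all genes lower. Their median was -0.86, and 2 of the 12 calls were kept whichever library was left out. MASTL, which shields CDK1 substrates from phosphatase, was at -1.11, CCNF, cyclin F, at -1.05, and CKS2, a CDK1 subunit, at -1.38 (limma adjusted p = 0.000664, 0.00135 and 0.00453). In shIMPDH2 cells 0 of the 15 were called, beside 17.0% of all genes tested.

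The regulators that act on these promoters were mixed. Among 16 genes of the MuvB, MYB, FOXM1, NF-Y and E2F group, 7 fell and 1 rose in shIMPA1 cells, with a median of -0.055, beside 16.2% of all genes lower. Of these 8 calls only that of RBL1 was kept whichever library was left out. RBL1, which encodes p107, fell, with 342 and 225 in shIMPA1, against 531 and 598 in shLuc and a log2 fold change of -1.02 ± 0.19 (SE), limma adjusted p = 0.00237. FOXM1, an activator of G2 and M phase genes, fell, with 1834 and 714 in shIMPA1, against 2409 and 2833 in shLuc and a log2 fold change of -1.19 ± 0.32 (SE), limma adjusted p = 0.0160. RBBP4, a MuvB subunit, and TFDP1, the partner of E2F, were at -0.60 and -0.57 (limma adjusted p = 0.00428 and 0.00466). In shIMPDH2 cells 3 fell and 0 rose: TFDP2 at -0.58, E2F5 at -0.65 and TFDP1 at -0.40, beside 9.15% of all genes lower, and each lost its call in some fit that left out a library. In shIMPA1 against shLuc FOXM1 lost its call without shLuc replicate 1 (limma adjusted p = 0.0823) or shLuc replicate 2 (limma adjusted p = 0.136). Without shIMPA1 replicate 2 it kept its call, at -0.51 (limma adjusted p = 0.000680).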

How the data were processed

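Libraries of poly(A) RNA from 22RV1 cells numbered 6. The submitters' processing notes name Trimmomatic 0.36, STAR 2.5.2b, featureCounts of Subread 1.5.2, DESeq2 and the build GRCh38, and per the labels' protocols, unique reads within exons were counted per gene. The deposited signal values are gene counts scaled by the authors with a single factor for each library: between 99.98% and 100% of the genes of a library give whole reads, to within 0.05 reads, when divided by what a read is worth. As planned for such values, limma 3.58.1 (R 4.3.3, mean-variance trend) was fitted to log2(value + 1) over all 6 libraries, with a coefficient for each group and 3 residual degrees of freedom. The filter, a value of 10 or more in 2 or more libraries, kept 17742 genes, all 42 members among them, and removed 69. Genes were called at a Benjamini-Hochberg adjusted p-value under 0.05. The pseudocount of 1 shrinks the fold change of low genes, and SE is limma's moderated standard error. Recovered reads were also tested with edgeR 4.0.16 (quasi-likelihood) and DESeq2 1.42.0, and the test was tried on simulated data. Exon lengths and coordinates are from GENCODE release 29, and promoter windows from RefSeq.

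The members and lists were chosen with earlier results of these data known, so no p-value over a list is given. All 42 members are named, and of each other list at most 4 genes with the smallest adjusted p in a comparison. Whether replicate libraries come from separate cultures is not given in the labels, so the p-values reflect the spread of these libraries alone, which may be technical. Same-numbered libraries of different groups did not deviate together (correlations of their deviations from the group means of 0.042, -0.049 and 0.00027).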

Additional observations from a re-analysis of the deposited data

How the results depend on the processing

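Pseudocounts of 0.5 and 5, other filters and both rescalings left 34 members called in shIMPA1 against shLuc and 26 in shIMPDH2 against shIMPA1. In shIMPA1 against shLuc, 34 members became 20 with DESeq2 and 11 without the mean-variance trend, and 10 to 40 when a library was left out. The 5361 genes called over the whole table became 3508 without the trend and 2147 to 7940 with a library left out. In shIMPDH2 against shLuc, 0 members became 1 with edgeR, with a pseudocount of 5 and with median-of-ratios scaling, 16 with only the 2 groups fitted, and 0 to 16 with a library left out. The 3018 genes became 1727 without the trend, 6382 with only the 2 groups and 773 to 6386 with a library left out. In shIMPDH2 against shIMPA1, 26 members became 15 with DESeq2, 3 without the trend, 17 with only the 2 groups and 1 to 41 with a library left out, and the 4627 genes became 2909 and 1430 to 7052. The median shLuc level per kilobase, 596, was 831 with the length of the longest transcript.

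With a library left out, some log2 fold changes of genes without a call changed sign. In shIMPA1 against shLuc these were IMPDH2 (-0.088 to 0.15), CENPN (-0.023 to 0.23), CENPA (-1.15 to 0.021) and CDC25C (-0.84 to 0.055). In shIMPDH2 against shLuc they were CENPL (-0.14 to 0.026), CENPU (-0.16 to 0.080), DSN1 (-0.11 to 0.061), CENPP (-0.057 to 0.26), NSL1 (-0.13 to 0.14), CCNB1 (-0.19 to 0.011), NDC80 (-0.12 to 0.045) and CCNB2 (-0.13 to 0.036). In shIMPDH2 against shIMPA1 they were CENPN (-0.026 to 0.12), CENPA (-0.22 to 0.96), CENPH (-0.020 to 1.02), CENPT (-0.0063 to 0.39), CENPE (-0.33 to 1.19), CENPF (-0.0095 to 1.34) and CDC25C (-0.30 to 0.59). With the replicate block the members called were 35, 1 and 30 in the 3 comparisons, shIMPA1 against shLuc, shIMPDH2 against shLuc and shIMPDH2 against shIMPA1; the libraries share only a number, and the labels do not pair them. With 2 libraries a group, and lone libraries assumed to vary like the others when 1 is left out, these counts limit how firmly a single call can be read. The cause of these changes was not tested.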

Other observations

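Most genes that hold and compact chromosomes were also lower in shIMPA1 cells. Among 18 genes of condensin and cohesin, 13 fell and 0 rose against shLuc, where limma called 16.2% of all genes lower, with a median log2 fold change of -0.92. ESCO2, which acetylates cohesin in S phase, stood at 751 and 337 in shIMPA1, against 1774 and 1689 in shLuc, and its log2 fold change was -1.78 ± 0.27 (SE), limma adjusted p = 0.000836. SMC3, a cohesin core subunit, stood at 2989.7 and 2317 in shIMPA1, against 4643 and 4894 in shLuc, with a log2 fold change of -0.86 ± 0.14 (SE), limma adjusted p = 0.00112. NCAPD3 of condensin II was at -0.99 and SMC4, shared by both condensins, at -1.27 (limma adjusted p = 0.00207 and 0.00279). These 4 kept their calls whichever library was left out. In shIMPDH2 cells limma called 0 of the 18 against shLuc, beside 17.0% of all genes tested. In shIMPDH2 against shIMPA1 11 were higher and 0 lower, beside 13.5% of all genes higher and 12.6% lower.

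The MCM helicase, which unwinds DNA at replication forks, fell in all 6 subunits in shIMPA1 cells, beside 16.2% of all genes lower. The median log2 fold change of the 6 was -1.37. MCM3 stood at 4732 and 4804 normalized counts in the shIMPA1 libraries, 3936 and 4167 in the shIMPDH2 libraries and 12998 and 13375 in the shLuc libraries. It was low in both knockdowns, without overlap with shLuc, and its log2 fold change was -1.47 ± 0.12 (SE), limma adjusted p = 1.26e-05 in shIMPA1 and -1.70 ± 0.12 (SE), limma adjusted p = 8.68e-06 in shIMPDH2, both against the same shLuc libraries. In shIMPDH2 cells MCM3 was the only 1 of the 6 called, where 17.0% of all genes tested were called. MCM6 stood at 1387 and 1131 in shIMPA1, 2858 and 2952 in shIMPDH2 and 2843 and 3313 in shLuc. The shIMPDH2 libraries of MCM6 lay close to shLuc, and limma placed MCM6 higher in shIMPDH2 than in shIMPA1, at 1.21 ± 0.13 (SE), limma adjusted p = 0.000147.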
